A study of Mus musculus with 4 samples.

Results

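The miR-23, miR-27 and miR-24 microRNAs (miRNAs) of the mouse come from 2 clusters of hairpin precursors, miR-23a/27a/24-2 and miR-23b/27b/24-1. Their 10 listed mature arms were read by name from a table of 1326 miRNAs, and all 10 were among the 584 that reached 10 counts in at least 2 libraries. The table covers 4 small RNA libraries from whole mouse retina at E18.5, late in gestation, when progenitors still divide and neurons are forming. Of these, 2 came from Ptf1a+/- embryos, with 1 lost copy of Ptf1a, and 2 from Ptf1a-/- embryos, with both copies lost. Without Ptf1a, a transcription factor of retinal precursors, amacrine and horizontal cells largely fail to form. The reference group is heterozygous, so no library had intact Ptf1a. The labels do not give the strain, the structure of the allele, or how animals relate to libraries, so p-values reflect only how far these libraries varied, possibly for technical reasons. The Ptf1a-/- libraries stood further apart, with a median absolute log2 difference of 0.32 over the 584 miRNAs against 0.10 between the Ptf1a+/- libraries.

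A miRNA cluster is transcribed as 1 primary RNA, from which Drosha and Dicer cut each hairpin into a duplex of a 5p and a 3p arm. One arm is usually kept in Argonaute as the guide and the other, the passenger, is mostly degraded, and the guide finds its targets mainly through its seed, bases 2 to 8. In these clusters the 3p arms are the usual guides. The clusters are best known from endothelial cells and vessel growth. Among single members, miR-23 has been linked to glutaminase, miR-27 to Pax3 in muscle precursors and to fat cell formation, and miR-24 to survival of cells in the developing amphibian retina.

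The guide arms are shown first, because they tell the clusters apart by a single base outside the seed. Each is the most frequent sequence of the authors' deposited sequence table, 5′ to 3′, with the seed in capitals; the species prefix mmu is dropped afterwards.
mmu-miR-23a-3p: aTCACATTgccagggatttcc
mmu-miR-23b-3p: aTCACATTgccagggattaccact
mmu-miR-27a-3p: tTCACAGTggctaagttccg
mmu-miR-27b-3p: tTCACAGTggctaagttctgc
mmu-miR-24-3p: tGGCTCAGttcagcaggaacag
Counting bases from 1 at the 5′ end, miR-23a-3p and miR-23b-3p differed over their 21 shared bases by T19A alone, and miR-27a-3p and miR-27b-3p over 20 by C19T alone. Each pair had the same seed, so the paralogs do not differ in the bases that pair first with a target. The seeds of miR-23 and miR-27 differed from each other by T7G. No other tested miRNA had, in its most frequent sequence, the seed of a miR-23, miR-27 or miR-24 guide. miR-128-3p, a neuron-enriched miRNA, started with the 7 bases of the miR-27 seed at its own base 1, which puts them 1 base out of register.

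The same guide sequence was the most frequent in all 4 libraries for 4 of these 5 arms. The exception was miR-27a-3p, which had 20 bases in 3 libraries and ended 1 base earlier in Ptf1a+/- replicate 2. The most frequent miR-23b-3p was 3 bases longer than its miRBase22 entry, per the marks in the deposited table. Its first 23 bases matched the Mir23b hairpin of RefSeq (GRCm38.p6) and the last did not, with G24T relative to the hairpin. The same 24 bases were found in both genotypes. This 3′ end, and not only T19A, set miR-23b-3p apart from miR-23a-3p in these libraries.

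The passenger arms differed more between the clusters, and they identify the precursor where the guides cannot.
miR-27a-5p: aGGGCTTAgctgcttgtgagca
miR-27b-5p: aGAGCTTAgctgattggtgaaca
miR-24-2-5p: gTGCCTACtgagctgaaacag
miR-24-1-5p: gTGCCTACtgagctgatatcagt
miR-24-1-5p with a further 5′ base: gGTGCCTActgagctgatatca
miR-23b-5p: gGGTTCCTggcatgctgatt
miR-27a-5p and miR-27b-5p differed in the seed by G3A. miR-24-2-5p and miR-24-1-5p were identical over their first 16 bases and differed from A17T onward. The most frequent miR-24-1-5p began 1 base earlier in Ptf1a+/- replicate 1 and Ptf1a-/- replicate 2 than in the other 2 libraries, which changes the seed from TGCCTAC to GTGCCTA. It was thus split within each genotype, and with 8.5 to 22.5 counts per library the most frequent sequence of this arm rests on few reads.

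Mir23a, Mir27a and Mir24-2 lie on chromosome 8 of GRCm38, plus strand, within 404 bases (84208518 to 84208921). No annotated gene of GENCODE M21 overlaps Mir23a or Mir27a, and Mir24-2 overlaps an exon of the long intergenic noncoding RNA gene Gm26532. Mir23b, Mir27b and Mir24-1 lie on chromosome 13, plus strand, within 792 bases (63300484 to 63301275), inside the protein-coding gene 2010111I01Rik. Mir23b overlaps no exon of that gene, while Mir27b overlaps 1 and Mir24-1 overlaps 4 annotated exons of its transcripts. miR-24-3p, in capitals in the RefSeq hairpins of both clusters, has the same 22 bases in each, so its counts cannot be assigned to a cluster.
Mir24-2: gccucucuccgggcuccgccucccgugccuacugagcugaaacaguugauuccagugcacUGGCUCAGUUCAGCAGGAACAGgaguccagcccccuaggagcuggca
Mir24-1: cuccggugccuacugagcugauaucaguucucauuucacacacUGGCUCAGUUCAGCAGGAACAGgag

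Listed counts per library ran from 3647145 to 4385834, and the 10 arms held 0.284 to 0.329% of them. Levels below are CPM (counts scaled to a common library total, here of the listed counts) after TMM scaling, a correction for composition between libraries. The Ptf1a-/- replicate 2 library had the lowest TMM factor (0.829, against 1.06 to 1.07 in the others). 3 counts, the limit that a count of 0 allows, correspond to 0.638 to 0.923 CPM (counting error only). The deposited counts are partly fractional, which shows reads divided among miRNAs. Fractions occurred in miR-24-1-5p and miR-24-2-5p in 4 of 4 libraries, in miR-23a-3p and miR-23b-3p in 2 and in miR-27a-3p and miR-27b-3p in 1. The arms of these pairs are therefore uncertain by the reads they share.

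miR-27b-3p was the most abundant arm, with 1460 and 1507 CPM in Ptf1a+/- replicates 1 and 2 and 1676 and 2002 CPM in Ptf1a-/- replicates 1 and 2. On this scale the Ptf1a-/- libraries were the 2 highest. The next arm, miR-24-3p, had 1029 and 1066 CPM in Ptf1a+/- and 887 and 899 CPM in Ptf1a-/-, so that the Ptf1a-/- libraries were the 2 lowest. These arms ranked 63 and 82 by mean level among the 584 miRNAs.

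miR-23b-3p stood at 214 and 212 CPM in Ptf1a+/- and at 200.1 and 209 CPM in Ptf1a-/-, so that its genotypes did not overlap but its 4 values were close. miR-27a-3p had 181 and 171 CPM in Ptf1a+/- and 169 and 195 CPM in Ptf1a-/-. The least abundant guide, miR-23a-3p, had 46.2 and 46.0 CPM in Ptf1a+/- and 51.7 and 41.9 CPM in Ptf1a-/-. For these last 2 arms the Ptf1a+/- libraries lay between the Ptf1a-/- libraries.

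The passengers were scarcer. miR-24-2-5p had 24.1 and 28.0 CPM in Ptf1a+/- and 25.7 and 30.9 in Ptf1a-/-. miR-27b-5p had 16.8 and 15.1 CPM in Ptf1a+/- and 16.3 and 26.5 in Ptf1a-/-, and miR-27a-5p 13.7 and 14.7 CPM in Ptf1a+/- and 11.6 and 18.8 in Ptf1a-/-. The highest value of all 3 was that of Ptf1a-/- replicate 2, and the genotypes overlapped for each. miR-24-1-5p had 5.81 and 3.72 CPM in Ptf1a+/- and 4.77 and 2.62 in Ptf1a-/-, with overlap. miR-23b-5p had 14 and 17 counts in Ptf1a+/- and 5 and 8 in Ptf1a-/-, that is 3.62 CPM in both Ptf1a+/- libraries and 1.29 and 2.46 CPM in Ptf1a-/-. This arm met the count minimum only through the Ptf1a+/- libraries, so that its lower level in Ptf1a-/- is in part a condition of its being tested. The partner arm of miR-23a-3p, miR-23a-5p, is no listed member; it had 1, 0, 4 and 3 counts in these libraries in the same order, below the minimum.

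In order of mean level the arms ran miR-27b-3p, miR-24-3p, miR-23b-3p, miR-27a-3p, miR-23a-3p, miR-24-2-5p, miR-27b-5p, miR-27a-5p, miR-24-1-5p and miR-23b-5p. The ranges over the 4 libraries overlapped between miR-24-2-5p and miR-27b-5p, between miR-27b-5p and miR-27a-5p, and between miR-24-1-5p and miR-23b-5p, so the order within these neighbours is not set. All other neighbours had ranges apart. Adapter ligation and PCR favour some sequences, so this order is that of reads and not of molecules.

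**Figure D1:**
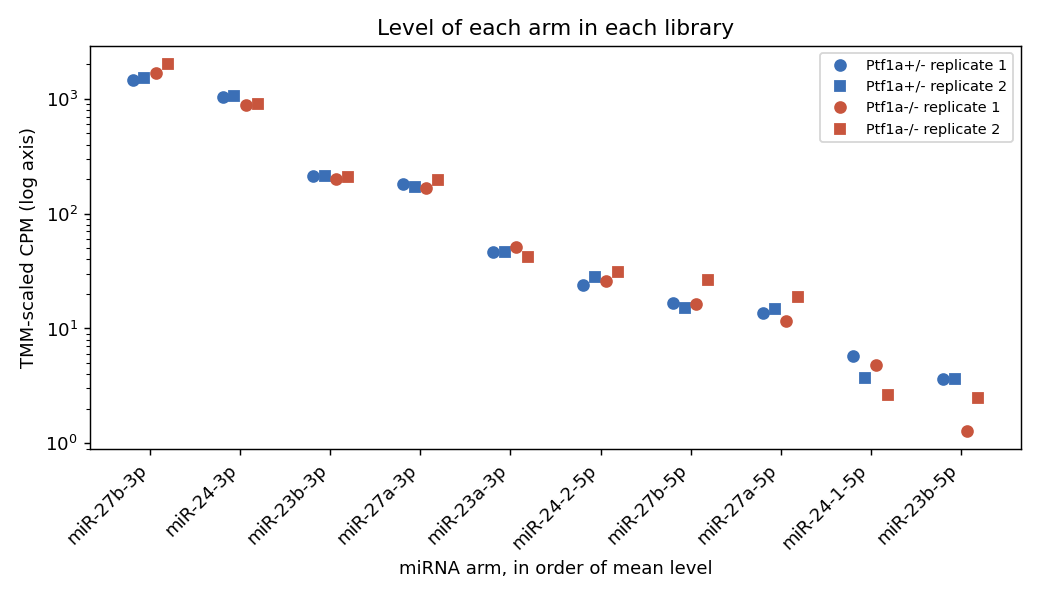
Level of the 10 arms in TMM-scaled CPM (log axis), 1 point per library, blue for Ptf1a+/- and red for Ptf1a-/-, circles for replicate 1 and squares for replicate 2. miR-27b-3p reached 1460 to 2002 CPM and miR-23b-5p 1.29 to 3.62 CPM.

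The 23b/27b/24-1 cluster gave most of the guide reads that could be assigned to a precursor. Its share of miR-23-3p counts was 82.3% (95% exact binomial interval 79.8 to 84.6%) and 82.1% (79.8 to 84.2%) in Ptf1a+/- replicates 1 and 2. In Ptf1a-/- replicates 1 and 2 it was 79.4% (76.8 to 81.9%) and 83.3% (80.6 to 85.8%). Its share of miR-27-3p counts was 89.0% (88.2 to 89.7%) and 89.8% (89.1 to 90.5%) in Ptf1a+/-. In Ptf1a-/- it was 90.9% (90.2 to 91.5%) and 91.1% (90.4 to 91.8%). The intervals cover counting error on rounded counts only and not how shared reads were divided. The miR-27b share was thus above the miR-23b share in every library.

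The passenger shares of miR-27 and miR-24 differed from the guide shares above, and miR-24-3p has no share to set beside its passengers. For miR-23, on few counts, miR-23b-5p was above miR-23a-5p in every library. It had 14 and 17 counts against 1 and 0 in Ptf1a+/-, and 5 and 8 against 4 and 3 in Ptf1a-/-. The miR-27b share of miR-27-5p counts was 55.1% (45.7 to 64.3%) and 50.7% (42.1 to 59.3%) in Ptf1a+/-, and 58.3% (48.5 to 67.7%) and 58.5% (50.1 to 66.6%) in Ptf1a-/-. The miR-24-1 share of miR-24-5p counts was 19.7% (12.9 to 28.0%) and 12.0% (7.27 to 18.3%) in Ptf1a+/-, and 16.0% (9.90 to 23.8%) and 8.18% (3.81 to 15.0%) in Ptf1a-/-. The chromosome 8 cluster thus gave most reads of the miR-24 passenger, and the chromosome 13 cluster most reads of the miR-23 and miR-27 guides. These are shares of reads and do not measure how much of each cluster was made. Summed over the 5p arms, log2 ratios of the first cluster to the second were 0.53 and 0.92 in Ptf1a+/- and 0.74 and 0.65 in Ptf1a-/-. Over the 3p arms they were -2.88 and -2.98 in Ptf1a+/- and -3.09 and -3.22 in Ptf1a-/-. Over all precursor-specific arms they were -2.68 and -2.74 in Ptf1a+/- and -2.88 and -2.97 in Ptf1a-/-, a difference of -0.21. The genotypes did not overlap (exact permutation p = 0.333, the smallest possible here), as for 56.8% of all pairs of tested miRNAs. miR-27b-3p weighs most in this sum, with 5654 of the second cluster's 6585.5 counts in Ptf1a+/- replicate 1. The log2 ratio of miR-23a-3p to miR-23b-3p differed the other way, by 0.07. The listed 5p arms are 2 of the first cluster and 3 of the second, since miR-23a-5p is no member.

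**Figure D2:**
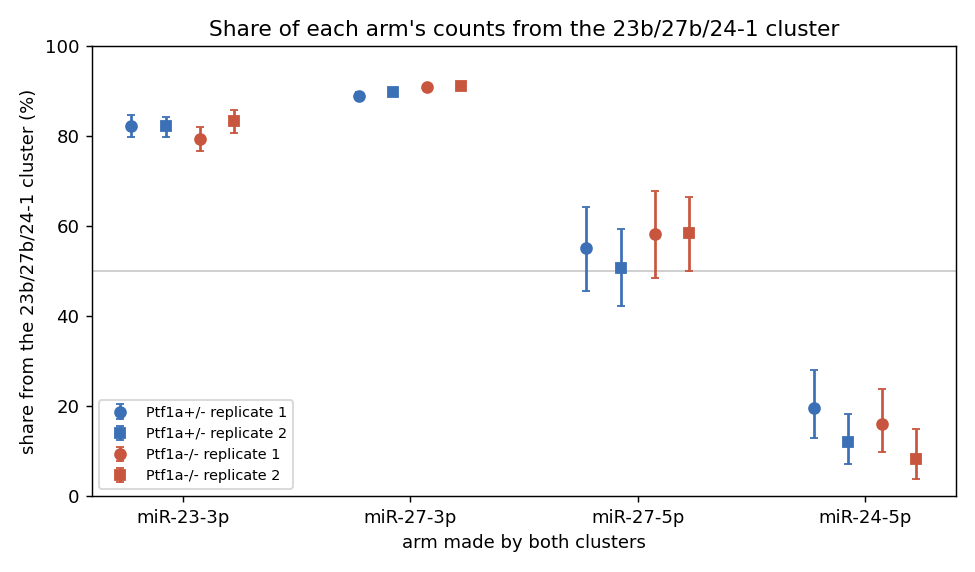
Share of counts from the 23b/27b/24-1 cluster (y axis, %) for each arm that both clusters make, 1 point per library with its 95% exact binomial interval (blue Ptf1a+/-, red Ptf1a-/-). The shares of miR-23-3p and miR-27-3p lay between 79.4 and 91.1%, those of miR-27-5p between 50.7 and 58.5% and those of miR-24-5p between 8.18 and 19.7%.

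Genotypes were compared to see how the arms stand when the remaining copy of Ptf1a is lost as well. None of the 10 arms passed (edgeR's quasi-likelihood test, p adjusted by Benjamini-Hochberg over 584 miRNAs and called under 0.05), against 9.76% of all 584 miRNAs, and 1, miR-27b-3p, had an unadjusted p under 0.05, against 25.3%. With DESeq2 and with limma on the deposited CPM none passed either. The median log2 fold change of the 10 arms was 0.037, against -0.0031 over all 584, with 6 arms above 0 and 4 below. The genotypes did not overlap for 4 arms. For miR-23b-3p, miR-23b-5p and miR-24-3p (3 arms) Ptf1a-/- was the lower, as for 31.5% of all miRNAs, and for miR-27b-3p (1 arm) it was the higher, as for 26.7%.

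Of the guides, miR-27b-3p stood at 1484 ± 33.4 CPM in Ptf1a+/- and 1839 ± 230.5 in Ptf1a-/- (mean ± SD, n = 2 each). Its log2 fold change was 0.31 ± 0.13 (SE, edgeR adjusted p = 0.195), with a 95% interval of 0.00094 to 0.62. miR-24-3p stood at 1047 ± 26.4 and 893 ± 8.61 CPM, a log2 fold change of -0.23 ± 0.10 (edgeR adjusted p = 0.221; 95% interval -0.48 to 0.02). On this scale the intervals end at 1.54-fold for miR-27b-3p and at 0.717-fold for miR-24-3p. Whether these 2 arms pass depends on the Ptf1a-/- libraries. Without replicate 1 of Ptf1a-/- the log2 fold changes were 0.42 and -0.23 (edgeR adjusted p = 2.89e-44 and 6.76e-11), and without its replicate 2 they were 0.18 and -0.24 (edgeR adjusted p = 7.27e-10 and 2.27e-12). In those fits the spread comes from the Ptf1a+/- pair alone, and 45.6 and 47.5% of all tested miRNAs passed.

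The guides with the smallest differences were miR-23a-3p, at 0.03 ± 0.17, miR-27a-3p, at 0.05 ± 0.13, and miR-23b-3p, at -0.06 ± 0.11 (log2 fold change ± SE, edgeR adjusted p from 0.797 to 0.954). Their 95% intervals in fold were 0.756 to 1.37, 0.830 to 1.29 and 0.796 to 1.16. With TMM scaling a change of more than 1.5-fold thus lay outside all 3 intervals, which does not hold for every scaling. Scaled by the total behind the deposited CPM, miR-23a-3p stood at -0.30 ± 0.32, miR-27a-3p at -0.30 ± 0.24 and miR-23b-3p at -0.40 ± 0.24.

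Passengers were measured less precisely. miR-23b-5p had a log2 fold change of -0.97 ± 0.40 (edgeR adjusted p = 0.201; 95% interval -1.96 to 0.02), under the count minimum in Ptf1a-/- as given above. It stood at -1.46 without Ptf1a-/- replicate 2 (edgeR adjusted p = 0.0245) and at -0.56 without Ptf1a-/- replicate 1 (edgeR adjusted p = 0.407), so that its passing rests on the library with 5 counts. miR-27b-5p stood at 0.41 ± 0.29, at 0.73 without Ptf1a-/- replicate 1 (edgeR adjusted p = 0.00746) and at 0.039 without Ptf1a-/- replicate 2 (edgeR adjusted p = 0.924). miR-24-1-5p stood at -0.36 ± 0.42, at -0.92 without Ptf1a-/- replicate 1 and at -0.0028 without Ptf1a-/- replicate 2, and at -0.099 and -0.66 without replicates 1 and 2 of Ptf1a+/-, in no case with a call. The values of these 3 passengers thus depended on single libraries. The chromosome 8 passengers miR-24-2-5p and miR-27a-5p stood at 0.10 ± 0.20 and 0.08 ± 0.30. With all libraries the edgeR adjusted p of the passengers other than miR-23b-5p ran from 0.448 to 0.908. The 4 arms that belong to the 23a/27a/24-2 cluster alone had log2 fold changes from 0.03 to 0.10, and those of the 23b/27b/24-1 cluster, leaving aside miR-23b-5p for its dependence on the count minimum, from -0.36 to 0.41. No test compares these fold changes between the clusters.

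**Figure D3:**
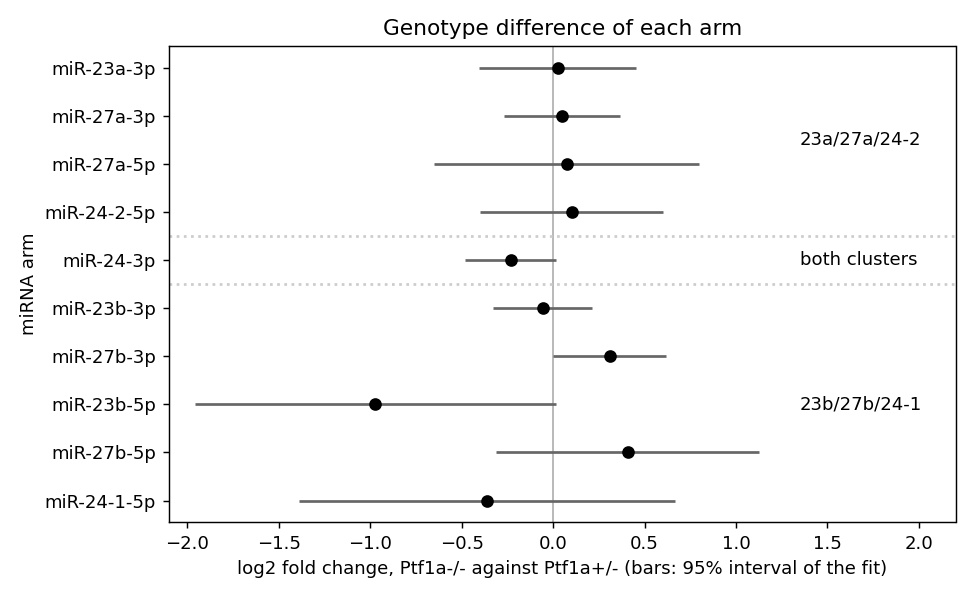
Log2 fold change of each arm between Ptf1a-/- and Ptf1a+/- (x axis, points) with the 95% interval of the edgeR fit (bars), grouped by cluster. The arms of 23a/27a/24-2 lay from 0.03 to 0.10, and miR-27b-3p was the arm whose interval began just above 0.

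The scale moved these values. With library size as the only scaling the median of all 584 miRNAs was -0.18, and with the total behind the deposited CPM -0.34. On the former scale miR-27b-3p stood at 0.12 and miR-24-3p at -0.41, and on the latter at -0.04 and -0.56, both with no call. In the deposited CPM miR-27b-3p had 1286 and 1353 CPM in Ptf1a+/- and 1373 and 1198 CPM in Ptf1a-/-, so the genotypes overlapped. miR-24-3p had 906 and 957 deposited CPM in Ptf1a+/- against 726 and 538 in Ptf1a-/-, and stayed apart. The 4 arms of the 23a/27a/24-2 cluster were at or just above 0 with TMM and below 0 on both other scales.

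**Figure D4:**
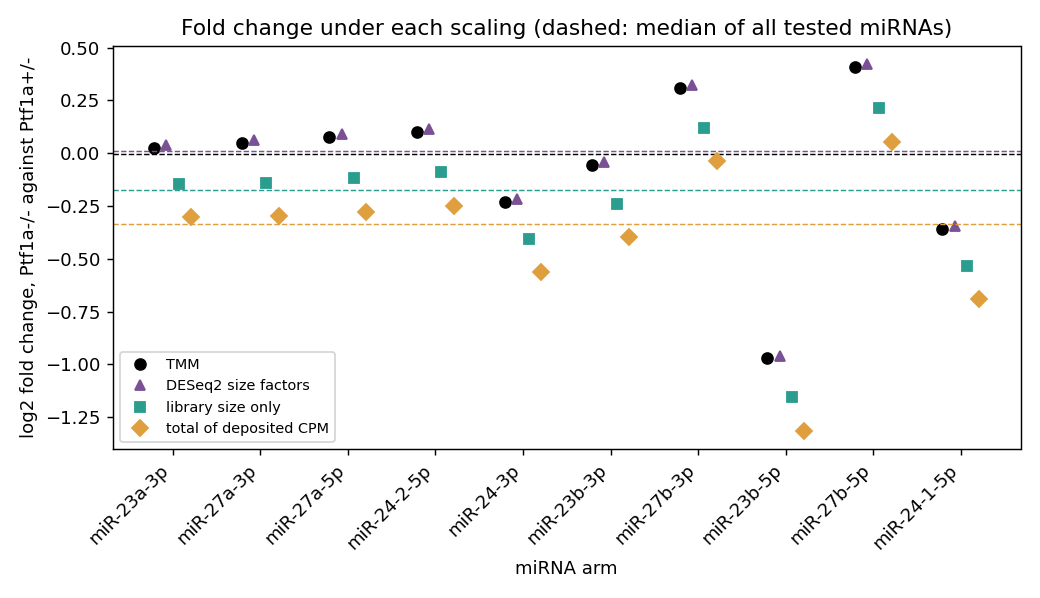
Log2 fold change of each arm (y axis) under 4 scalings of the libraries, with a dashed line at the median of all tested miRNAs under each. TMM and DESeq2 size factors gave nearly the same values, and library size alone (median -0.18) or the deposited total (median -0.34) moved all arms downward together.

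A ratio of 2 arms within a library needs no scaling. Counts of miR-27a-3p were 0.124 and 0.113 of those of miR-27b-3p in Ptf1a+/- and 0.101 and 0.0975 in Ptf1a-/-. The log2 ratio was lower in Ptf1a-/- by a difference of -0.26, from -3.08 ± 0.09 to -3.34 ± 0.03 (SD, n = 2 each), and the genotypes did not overlap (two-sided exact permutation p = 0.333, adjusted over 4 pairs 0.667). With 2 libraries against 2 this is the smallest p possible. Among all pairs of the 584 miRNAs the genotypes did not overlap for 56.8%.

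The miR-27 passengers lay on the same side, with log2 ratios of miR-27a-5p to miR-27b-5p of -0.29 and -0.04 in Ptf1a+/- and -0.48 and -0.49 in Ptf1a-/- (exact permutation p = 0.333, adjusted 0.667). The other pairs overlapped between genotypes. The log2 ratio of miR-23a-3p to miR-23b-3p was -2.21 and -2.20 in Ptf1a+/- and -1.95 and -2.32 in Ptf1a-/- (exact permutation p = 1). That of miR-24-2-5p to miR-24-1-5p was 2.03 and 2.87 in Ptf1a+/- and 2.40 and 3.49 in Ptf1a-/- (exact permutation p = 0.667, adjusted 0.889). The Ptf1a-/- libraries differed more from each other than the genotype means in the miR-23 pair.

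Guides within each cluster, and miR-24-3p against guides pooled over both clusters, were compared in the same way. These ratios were chosen after their values were seen. Those with miR-24-3p mix 2 primary transcripts. miR-27b-3p had 6.81 and 7.12 times the counts of miR-23b-3p in Ptf1a+/- and 8.38 and 9.57 times in Ptf1a-/-, a difference of 0.36 in the log2 ratio. In the other cluster miR-27a-3p had 3.91 and 3.71 times the counts of miR-23a-3p in Ptf1a+/- and 3.26 and 4.66 times in Ptf1a-/-, a difference of 0.03 with the genotypes overlapping. miR-27-3p of both clusters had 1.59 and 1.57 times the counts of miR-24-3p in Ptf1a+/- and 2.08 and 2.44 times in Ptf1a-/-, a difference of 0.51. miR-24-3p had 3.95 and 4.14 times the counts of miR-23-3p in Ptf1a+/- and 3.52 and 3.58 times in Ptf1a-/-, a difference of -0.19. In 3 of these 4 ratios the genotypes did not overlap, again against 56.8% of all pairs, and each of those 3 had an exact permutation p of 0.333 (adjusted over 4 ratios 0.444). The share of the 10 arms' counts that was miR-27b-3p was 48.8 and 49.1% in Ptf1a+/- and 55.1 and 58.4% in Ptf1a-/-, while that of miR-24-3p was 34.4 and 34.8% in Ptf1a+/- and 29.1 and 26.2% in Ptf1a-/-.

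**Figure D5:**
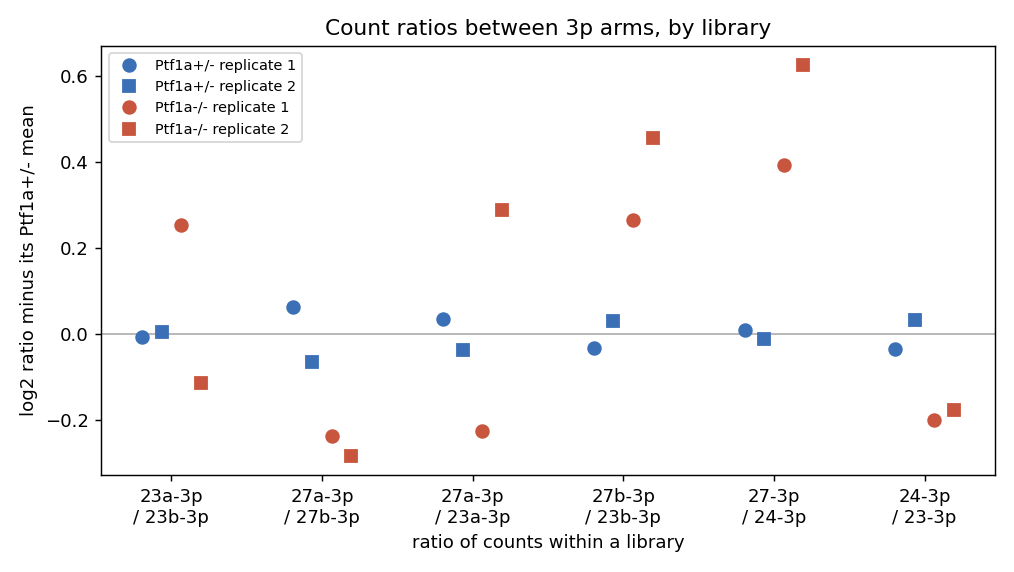
Log2 ratio of counts between 3p arms within each library, minus the mean of the Ptf1a+/- libraries (y axis), 1 point per library (blue Ptf1a+/-, red Ptf1a-/-). The ratio of miR-27-3p to miR-24-3p differed by 0.51 between genotypes, and the miR-23a-3p to miR-23b-3p ratio had the Ptf1a-/- libraries on either side.

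The ratio of guide to passenger differed widely between paralogous precursors. miR-27b-3p had 75.6 to 103 times the counts of miR-27b-5p over the 4 libraries and miR-27a-3p 10.4 to 14.5 times those of miR-27a-5p, so the ranges were far apart although the guides differ by 1 base. Between genotypes the log2 ratios overlapped for both, with differences of -0.08 for miR-27b and -0.02 for miR-27a (exact permutation p = 1 each). For miR-23b the ratio was 59.3 and 58.6 in Ptf1a+/- and 155 and 85.0 in Ptf1a-/-, on 5 and 8 passenger counts in the latter (exact permutation p = 0.333, adjusted over 3 precursors 1).

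Reads of the opposite strand were chosen for a look after their values were seen. The Mir3074 hairpins lie antisense to Mir24-1 and Mir24-2, and the most frequent miR-3074-5p shared 20 bases with the reverse complement of miR-24-3p.
miR-3074-5p: gTTCCTGCtgaactgagccagt
It had 218 and 270 counts in Ptf1a+/- and 196 and 188 in Ptf1a-/-, or 50.6 to 57.9 CPM over the 4 libraries. Its log2 fold change was -0.07 ± 0.16 (edgeR adjusted p = 0.819), and its level lay above that of miR-23a-3p in 3 of 4 libraries. The scarcer miR-3074-1-3p had 5.94 and 7.02 CPM in Ptf1a+/- and 5.68 and 1.85 in Ptf1a-/-, the last on 6 counts. Ptf1a-/- was thus the lower without overlap, as for 31.5% of all miRNAs. The log2 fold change of miR-3074-1-3p was -0.73 ± 0.47 (edgeR adjusted p = 0.393). miR-3074-2-3p had 0 counts in all 4 libraries.

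Among the other tested miRNAs, the closest profiles over the 4 libraries were found by the root mean square difference of centred log2 CPM. For the mean of the 23a/27a/24-2 guides they were miR-30c-5p (0.0164), miR-186-5p (0.0191) and miR-383-5p (0.0283), all nearly flat. For the mean of the 23b/27b/24-1 guides they were miR-34c-5p (0.0115), let-7a-5p (0.0190) and miR-344-3p (0.0293). Each mean pools guides that did not move together. In Ptf1a-/- replicates 1 and 2 miR-23a-3p had 51.7 and 41.9 CPM and miR-27a-3p 169 and 195. In the other cluster miR-23b-3p was lower in Ptf1a-/- and miR-27b-3p higher. These neighbours are thus close to a mean and not to a single guide. miR-24-3p was closest to miR-3473b (0.0148), miR-297b-5p (0.0177) and miR-130a-3p (0.0238), which likewise had their 2 lowest values in Ptf1a-/-. Over 4 libraries such closeness is a description.

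The clusters are known for vessel growth, so other miRNAs linked to it were read from the same fit. Of 16 such miRNAs tested, miR-222-3p (log2 fold change -0.59 ± 0.13, edgeR adjusted p = 0.0436) and miR-132-3p (-0.96 ± 0.22, edgeR adjusted p = 0.0471) fell and 14 did not pass, against 3.60% of all miRNAs lower and 6.16% higher. The median of the 16 was 0.01. Their summed level was 27312 to 27562 CPM in Ptf1a+/- and 26787 to 27761 in Ptf1a-/-.

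Markers of other cell types in a dissected retina were measured beside the clusters. The endothelial pair miR-126a-3p and miR-126a-5p summed to 559 and 579 CPM in Ptf1a+/- and 339 and 566 CPM in Ptf1a-/-, and neither of the 2 passed. The low sum was that of miR-126a-3p, with 324 CPM in Ptf1a-/- replicate 1 against 545 to 564 CPM in the other libraries. miR-126a-5p had 12.9 and 15.3 CPM in Ptf1a+/- and 14.5 and 21.2 CPM in Ptf1a-/-, so it was not low in that library. Of 7 mural and mesenchymal miRNAs 3 were tested and 1, miR-199a-5p, fell (-1.05 ± 0.22, edgeR adjusted p = 0.0430), against 3.60% of all miRNAs lower. miR-143-3p stood at -1.03 ± 0.25 with no call, and miR-199a-3p at 0.03 ± 0.18. The counts of miR-199a-3p equalled those of miR-199b-3p in every library, so they cannot be assigned to the precursor of miR-199a-5p. The 7 summed to 87.8 to 92.7 CPM in Ptf1a+/- and 55.7 to 63.7 in Ptf1a-/-, with miR-143-5p, miR-145a-5p, miR-145a-3p and miR-214-3p at 0 in at least 1 library. Of 6 blood cell miRNAs with a row, 2 were tested and none passed. These summed to 75.8 to 80.4 CPM in Ptf1a+/- and 67.5 to 99.4 in Ptf1a-/-, with miR-451a, miR-144-3p and miR-223-3p at 0 in at least 1 library. The part of these cells in the levels of the clusters was not tested, and in whole retina fewer cells of a type cannot be told apart from less RNA per cell.

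Retinal miRNAs (miR-124-3p, miR-9-5p, miR-183-5p and miR-182-5p) summed to 330445 to 333535 CPM in Ptf1a+/- and 358800 to 511956 in Ptf1a-/-, and 0 of 4 passed. They did not share a direction: miR-124-3p had a log2 fold change of -0.15, and miR-9-5p, miR-183-5p and miR-182-5p had 0.38, 0.48 and 0.37. Among 3 miRNAs of the pigment epithelium 1 fell, miR-204-3p, against 3.60% of all miRNAs lower, with sums of 3689 to 3728 and 3203 to 3565 CPM. Among 3 miRNAs of lens and surface epithelium 1 fell, miR-200b-3p, against 3.60% of all miRNAs lower, with sums of 292 to 305 and 227 to 300.4 CPM. miR-200b-3p had 25 and 31 counts in Ptf1a+/- and 1 and 3 in Ptf1a-/-. It met the count minimum only through the Ptf1a+/- libraries, so its lower level is in part a condition of its being tested. In the same list miR-184-3p stood at -0.44 and miR-203-3p at 0.30, neither with a call. None of 3 striated muscle miRNAs passed, with sums of 48.5 to 51.1 and 65.0 to 70.3 CPM.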

How the data were processed

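A gel slice of 18 to 30 nt RNA was made into libraries, with a second slice of cDNA at 60 to 80 nt, per the labels' protocols. The submitters' processing notes name bcl2fastq 2.20.0.422 for demultiplexing. Aligner, counter and build are not given in these sources. The authors' raw table holds estimated counts, some of them fractional; they were rounded for edgeR and DESeq2 and used as deposited for levels and ratios. The deposited CPM divide the same counts by a total that exceeds the listed counts by 16.3 to 27.9% of that total. Most frequent sequences come from a deposited text table written against miRBase22, per the file headers.

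edgeR 4.0.16 (R 4.3.3, TMM, quasi-likelihood F test, genotype as the only term) was fitted to the 584 miRNAs that reached 10 counts in at least 2 libraries, with Benjamini-Hochberg adjustment. Errors of log2 fold changes are SE from the fit. Ratios used a pseudocount of 0.5 and a two-sided exact permutation test, whose smallest p is 0.333. Profile likeness used log2 CPM with a prior count of 2. The fit was tested on simulated data. Alternatives were other scalings, DESeq2 1.42.0, limma 3.58.1 on log2(deposited CPM + 1), other filters, a replicate block, summed Ptf1a+/- libraries, summed paralogs and leaving out each library. The text names all 10 arms, the 3 closest profiles to each mean guide profile and to miR-24-3p, and the list members that passed, with some that did not. Antisense rows, ratios within a cluster and ratios with miR-24-3p were added after their values were seen. Members and lists were chosen with earlier results of these data known.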

Additional observations from a re-analysis of the deposited data

How the results depend on the processing

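With all 4 libraries none of the 10 arms passed under any scaling, tool or filter tried, nor with the Ptf1a+/- libraries summed, while leaving out a Ptf1a-/- library gave the calls described above. The count over all miRNAs was 57 (63.2% higher) and moved far more. It was 16 (25% higher) with library size only, 29 (6.90% higher) with the total behind the deposited CPM, 7 (0 higher) with limma on the deposited CPM, 21 with no low-count filter, 1 with the Ptf1a+/- libraries summed, and from 0 (46 at an unadjusted p under 0.05, edgeR) to 274 without a library. Deviations of same-numbered libraries had a correlation of 0.05 over the miRNAs. With 2 pairs this cannot show whether replicate numbers pair the libraries, and the labels do not say. With the numbers as a replicate block 12 passed and no arm's call changed.

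Several arms close to 0 changed sign. With library size only miR-23a-3p, miR-27a-3p, miR-27a-5p and miR-24-2-5p stood at -0.14, -0.14, -0.12 and -0.089. With the total behind the deposited CPM they stood at -0.30, -0.30, -0.28 and -0.25, and miR-27b-3p at -0.038. With limma on the deposited CPM the same arms stood at -0.32, -0.30, -0.27, -0.22 and -0.040. These changes follow the shift of all miRNAs given above. miR-23a-3p was also at -0.0017 with the Ptf1a+/- libraries summed, and at -0.043 as a sum with miR-23b-3p. Without a library in turn, log2 fold changes ran from -0.15 to 0.17 for miR-23a-3p, from -0.053 to 0.14 for miR-27a-3p, from -0.29 to 0.39 for miR-27a-5p and from -0.027 to 0.21 for miR-24-2-5p.

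Differences in log2 ratio kept their sign without any library for miR-27a-3p to miR-27b-3p (-0.32 to -0.20), miR-27a-5p to miR-27b-5p (-0.45 to -0.19), miR-23b-3p to miR-23b-5p (0.49 to 1.31), miR-27b-3p to miR-23b-3p (0.27 to 0.46), miR-27-3p to miR-24-3p (0.39 to 0.63) and miR-24-3p to miR-23-3p (-0.22 to -0.15). The ratio of the clusters over all their specific arms also kept its sign (-0.25 to -0.17), and it was -0.030 over the 5p arms alone. In each ratio that kept its sign the genotypes did not overlap. Leaving out a library could then not change the sign, so this adds nothing to the lack of overlap. Signs changed for miR-23a-3p to miR-23b-3p (-0.11 to 0.26), miR-24-2-5p to miR-24-1-5p (-0.057 to 1.04), miR-27a-3p to miR-27a-5p (-0.25 to 0.22), miR-27b-3p to miR-27b-5p (-0.30 to 0.15) and miR-27a-3p to miR-23a-3p (-0.23 to 0.29). Other pseudocounts and rounding changed no sign of the ratios they were tried on. A replicate block leaves a difference of mean log2 ratios as it is by construction, so it could not test these signs. miR-23b-5p could not be tested with the Ptf1a+/- libraries summed or 1 of them left out, nor miR-23b-5p and miR-24-1-5p at 50 counts, since they fell under the count minimum.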
